A study of Homo sapiens with 6 samples.

Results

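A total of 28 genes of cholesterol synthesis, SREBP control and cholesterol disposal were looked up on the arrays by their exact platform symbol, and 25 of them had a probe set carrying that symbol alone, of 18404 genes measured in this way. Where a gene had several probe sets, the one with the highest mean over all 6 arrays was used. *FDFT1* and *NR1H2* were not analysed here. *HSD17B7* was found only on a probe set that it shares with the pseudogene *HSD17B7P2*, and its values are given apart from the others. The arrays held amplified cDNA of the chordoma cell line MUG-Chor1, in 3 pools of 20 large physaliferous (vacuolated) cells and 3 pools of 20 small non-vacuolated cells. All pools came from 1 line, grown in medium with fetal bovine serum, trypsinized and picked by micromanipulation, and the labels name no treatment. The sources used here do not state separate cultures for the pools, and p-values therefore cover the spread between these pools only, which may be technical. Fewer transcripts per cell and fewer expressing cells in a pool cannot be told apart.

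Cholesterol is built in the endoplasmic reticulum from acetyl-CoA by way of mevalonate, squalene and lanosterol. The genes of this route are switched by the sterol regulatory element-binding proteins (SREBPs), membrane-bound transcription factors that SCAP escorts to the Golgi for cleavage when sterols are scarce and that the INSIG proteins hold back when sterols are plentiful. Surplus cholesterol is esterified or exported, and the liver X receptors (LXRs) drive the export side. Cholesterol is a main lipid of the plasma membrane, and physaliferous cells are the vacuolated cells for which chordoma is known.

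Values are log2 expression, and a log2 fold change is the mean of large minus the mean of small cells. The arrays of large cells had medians over all probe sets of 6.64 to 6.68 and those of small cells 6.73 to 6.76, and over all genes the log2 fold change had a median of -0.11, so that 66.4% of all genes had lower values in large cells. Of 8 chordoma markers 7 were above the expression floor, a log2 value of 6.64, in all pools. Brachyury (*TBXT*) and the keratins *KRT8* and *KRT19* were among these, whereas *EPCAM* was above the floor in 1 large and 1 small pool. The leukocyte marker *PTPRC* was below it in all pools (4.41 to 4.64). The 4 measured leukocyte markers had a mean log2 level of 5.40 to 5.80 in large and of 5.62 to 6.02 in small pools, and *CD14* was above the floor in 4 of the 6 pools. Of 8 fibroblast markers 8 had lower values in large cells, and the median of their log2 fold changes was -0.16. Their mean log2 level was 6.79 to 6.89 in large and 7.02 to 7.31 in small pools. Of the 8 markers 4 were above the floor in all 6 pools, among them *THY1* (9.27 to 10.21) and *COL1A1* (7.67 to 8.01). *DCN* and *PDGFRA* were below the floor in all 6. The part of these markers in the results was not tested.

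No difference between large and small cells passed the test for any of the 25 genes. By limma 0 of them passed an adjusted p of 0.05 with an absolute log2 fold change above 1, as did 0 of all 18404 genes (0%). After removing genes without expression or change, the paper reported *ALG11*, *UCHL3*, *TMEM144* and *PPP2CB* at the same thresholds. These are not among the 25 genes. At an unadjusted p under 0.05 there was 1 member with lower and 0 with higher values in large cells, where the shares of all genes were 10.5% lower and 4.33% higher. The groups did not overlap for 3 of the 25 genes, each with every large pool below every small pool, and for 0 genes in the opposite direction, against 21.6% and 5.48% of all genes and 27% in either direction. The members thus did not exceed the background in either direction. Their median log2 fold change was -0.06, with 10 genes above 0, against 33.6% of all genes, and 15 below. Adjusted p-values of the members ran from 0.34 to 0.96, and with 3 pools in each phenotype the smallest p of an exact two-sided permutation test is 0.1.

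The precision differed from gene to gene. For 16 of the 25 genes (64%) the 95% confidence interval of the log2 fold change lay inside -1 to 1, against 82.5% of all genes. For the other 9 members it reached beyond, so that a log2 change of 1 lay within the error for these. The median SD within a phenotype was 0.29 over the members and 0.18 over all genes. The values of 10 members (40%) spanned more than 1 on the log2 scale over the 6 pools, against 3862 of all 18404 genes. The sets also differed in detection, as 3 of the 25 members were above the floor in no pool, against 5590 of all genes. The part of this in the spread was not tested.

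**Figure D1:**
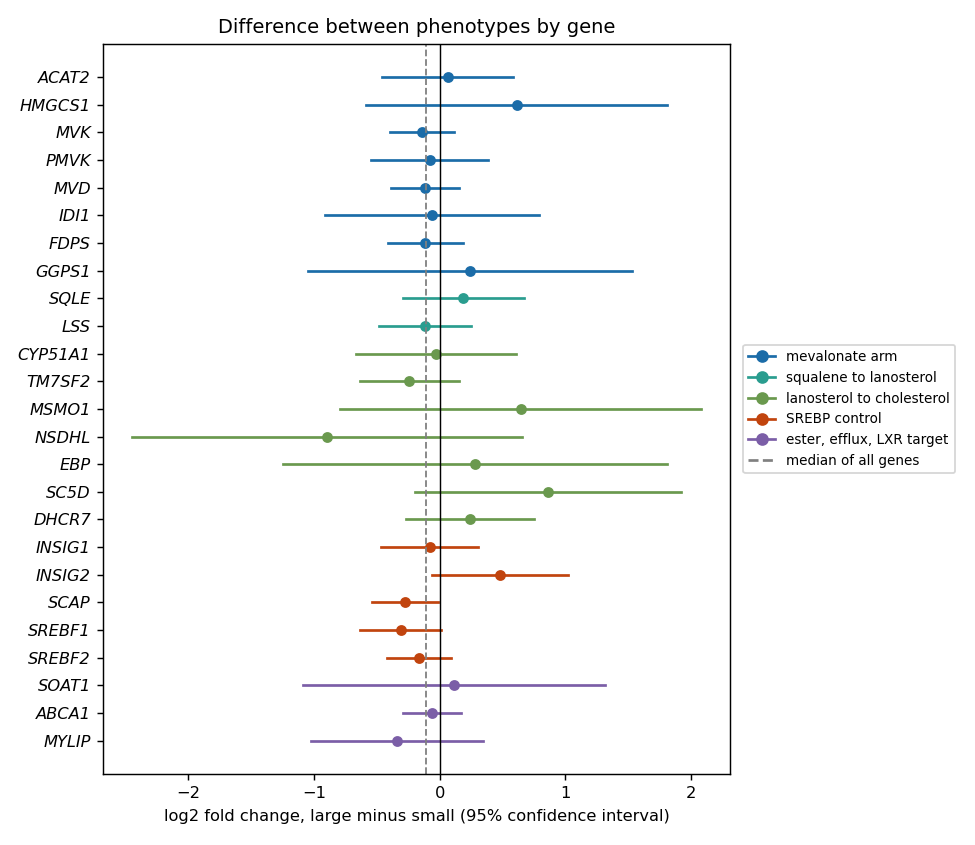
Log2 fold change, large minus small (horizontal axis), for the 25 genes (vertical axis), coloured by role, with 95% confidence intervals from limma (3 pools against 3); the dashed line is the median of all genes, -0.11. The interval of *SCAP* alone lies wholly on one side of 0, and the widest intervals belong to *NSDHL*, *EBP* and *MSMO1*.

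Of the 5 control genes 4 spanned 0.38 to 0.55 on the log2 scale over the 6 pools and *INSIG2* spanned 1.05. *SCAP*, *SREBF1* and *SREBF2*, that is the escort and both SREBP genes, had all their large pools below all their small pools. The same was true of 21.6% of all genes. *SCAP* (chromosome 3) had log2 values of 7.13, 6.98 and 7.21 in large pools 2, 3 and 4 and of 7.46, 7.28 and 7.41 in small pools 5, 6 and 7. Its log2 fold change was -0.27 (standard error 0.11, 95% confidence interval -0.54 to -0.01, limma adjusted p = 0.34), and it was the member with an unadjusted p under 0.05. *SREBF1* (chromosome 17), whose product favours fatty acid genes, had log2 values of 6.94, 6.52 and 6.67 in large and of 7.06, 7.03 and 6.96 in small pools. Large pool 2 lay just under the lowest small pool, and the log2 fold change was -0.31 (standard error 0.13, interval -0.63 to 0.01, limma adjusted p = 0.34). *SREBF2* (chromosome 22), whose product favours cholesterol genes, had log2 values of 6.43, 6.21 and 6.38 in large and of 6.47, 6.46 and 6.60 in small pools, and its log2 fold change was -0.17 (standard error 0.10, interval -0.42 to 0.09, limma adjusted p = 0.43). The gap between the groups of *SREBF2* was small, all 6 values lay below the expression floor, and without large pool 3 the log2 fold change was -0.10, so its size is uncertain.

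This separation depended on the scaling of the arrays. After centring each array on its median the large and small pools overlapped for all 3 genes, with log2 fold changes of -0.19 for *SCAP*, -0.23 for *SREBF1* and -0.08 for *SREBF2*. In a separate quantile normalization of the deposited values, without centring, *SCAP* alone of the 3 was without overlap (log2 fold change -0.22). Centring moved the median log2 fold change of all genes from -0.11 to -0.03.

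The INSIG genes encode the sterol-dependent anchors of SCAP, and the large and small pools overlapped for both. *INSIG1* (chromosome 7), itself an SREBP target, had log2 values of 7.53, 7.42 and 7.59 in large and of 7.87, 7.59 and 7.32 in small pools. The small pools enclosed the large ones, and the log2 fold change was -0.08 (interval -0.46 to 0.31). *INSIG2* (chromosome 2), which is not driven by SREBPs in the same way, had log2 values of 9.11, 8.81 and 8.81 in large and of 8.06, 8.38 and 8.87 in small pools. Small pool 7 lay among the large pools, whereas the other small pools lay below, and the log2 fold change was 0.48 (standard error 0.22, interval -0.06 to 1.02, limma adjusted p = 0.35). Without small pool 7 it was 0.70 (limma adjusted p = 0.39), and without small pool 5 it was 0.29. After centring, every large pool lay above every small pool for *INSIG2*, with a log2 fold change of 0.56.

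**Figure D2:**
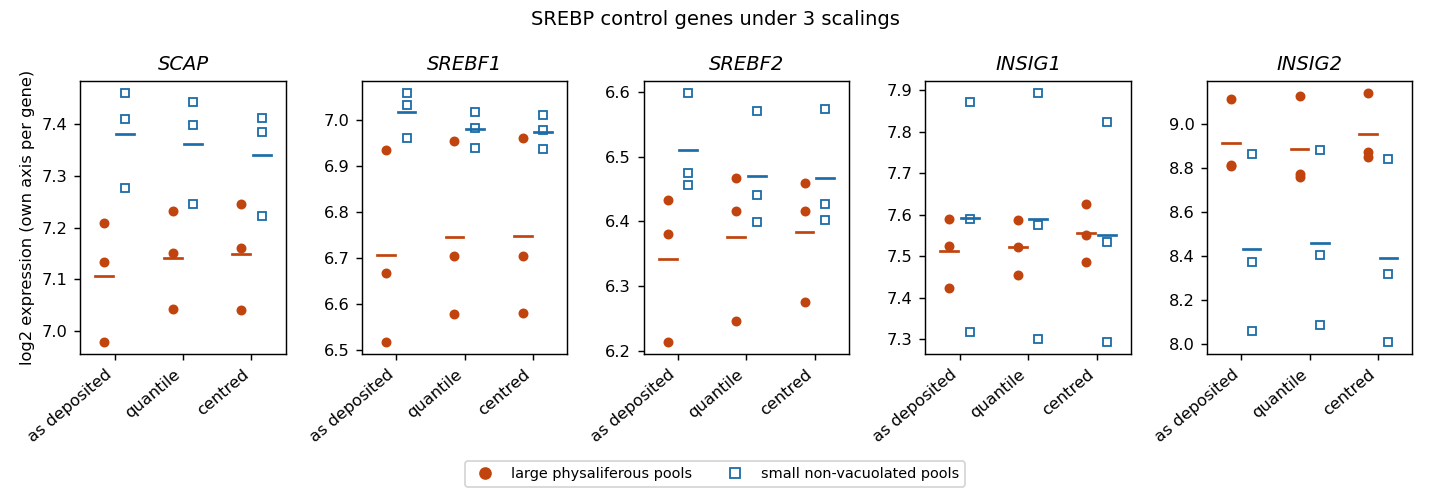
Log2 expression (vertical axes, 1 scale per gene) of the 5 SREBP control genes in large (filled circles) and small (open squares) pools in the deposited values and under both rescalings, quantile normalization and centring on array medians; horizontal lines are means (n = 3 pools). As deposited *SCAP*, *SREBF1* and *SREBF2* are lower in all large pools, whereas after centring the groups of all 3 overlap and those of *INSIG2* separate.

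The bases before the start sites of the 3 genes that separated as deposited are shown. SREBPs can act on the SREBP genes themselves through the sterol regulatory element, and *SCAP* is shown because it separated too. A shared control of the 3 genes was not tested. The sequences are from RefSeq (GRCh38.p14), each the 250 bases ahead of the start used in its promoter table, 5′ to 3′ on the gene's strand. For *SREBF1* and *SREBF2* this start is the 5′ end of the annotated gene. For *SCAP* it lies within the annotated gene, which extends from 47413681 to 47477127, so the bases shown are not those ahead of its outermost start. Capitals mark the core TCACNCCAC of the sterol regulatory element, the CCAAT box of NF-Y, a factor that works with SREBPs, and the E-box CACGTG, each searched on both strands and none overlapping another here. The bases shown for *SREBF1* held none of these letters, and bases ahead of any start further inside that gene are not shown.
SREBF2 (chr22:41832855-41833104, plus strand): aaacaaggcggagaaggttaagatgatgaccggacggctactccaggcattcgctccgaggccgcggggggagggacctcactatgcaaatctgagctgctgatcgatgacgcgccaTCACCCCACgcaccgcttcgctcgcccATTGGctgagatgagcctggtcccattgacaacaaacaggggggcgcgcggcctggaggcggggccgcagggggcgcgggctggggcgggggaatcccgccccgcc
SREBF1 (chr17:17836987-17837236, minus strand): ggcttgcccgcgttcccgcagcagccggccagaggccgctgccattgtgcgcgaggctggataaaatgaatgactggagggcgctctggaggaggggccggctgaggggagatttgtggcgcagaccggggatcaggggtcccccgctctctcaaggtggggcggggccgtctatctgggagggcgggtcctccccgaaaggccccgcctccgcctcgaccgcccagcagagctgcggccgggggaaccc
SCAP (chr3:47475942-47476191, minus strand): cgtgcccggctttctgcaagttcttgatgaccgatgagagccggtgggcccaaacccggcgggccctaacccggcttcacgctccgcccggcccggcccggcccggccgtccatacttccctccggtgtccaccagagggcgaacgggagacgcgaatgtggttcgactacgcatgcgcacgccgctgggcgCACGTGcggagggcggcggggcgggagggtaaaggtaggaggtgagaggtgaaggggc

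The core of the sterol regulatory element began at position -133 from the start of *SREBF2*, followed by an inverted CCAAT box. It was in 1 of the 23 members with a promoter window of 300 bases (1 of 31 windows, against 1.13% of 35116 windows of all genes). A CCAAT box was in the windows of 17 of the 23 genes (19 of 31 windows, against 34.6% of all windows), and CACGTG in those of 5 genes (6 of 31 windows, against 7.26%). These letters describe the windows and do not show binding.

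Both SREBP genes also carry a microRNA within their span, and *ABCA1* is a known target of both. The mature forms are shown because they share their seed, bases 2 to 8, in capitals.
hsa-miR-33a-5p (within SREBF2, chr22:41900949-41900969, plus strand): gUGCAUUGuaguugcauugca
hsa-miR-33b-5p (within SREBF1, chr17:17813897-17813916, minus strand): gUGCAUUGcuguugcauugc
Over the 20 positions that both hold they differ at 2. The arrays have a probe set for the hairpin gene *MIR33A*, with log2 values of 5.02, 4.53 and 5.23 in large and of 5.41, 5.05 and 5.09 in small pools. The groups overlapped, all values were below the expression floor, and mature and precursor forms cannot be told apart on these arrays.

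The synthesis enzymes showed no common direction. Of 17 measured enzymes 8 had higher and 9 lower values in large cells, the median of the log2 fold changes was -0.03, and the groups overlapped for all 17. In the mevalonate arm *HMGCS1*, which makes HMG-CoA, had log2 values of 8.90, 7.83 and 8.0 in large and of 8.10, 8.17 and 6.62 in small pools. Large pool 2 was high and small pool 7 low, the other pools were close together, and the log2 fold change was 0.61 (standard error 0.49, interval -0.59 to 1.81, limma adjusted p = 0.52). Without small pool 7 it was 0.11, and without large pool 2 it was 0.29.

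For the other mevalonate genes the log2 fold changes were smaller and the groups overlapped. The thiolase *ACAT2* had a log2 fold change of 0.06, the kinases *MVK* and *PMVK* had -0.14 and -0.08 and the decarboxylase *MVD* had -0.12. The isomerase *IDI1* had -0.06 and the farnesyl diphosphate synthase *FDPS* had -0.11. Probe sets that *FDPS* shares with *FDPSP2* went the other way, with log2 fold changes of 0.57 and 0.28, and were not tested. The intervals of *MVK* (-0.40 to 0.11), *MVD* (-0.39 to 0.15) and *FDPS* (-0.41 to 0.18) lay inside -0.5 to 0.5, though *MVK* was below the floor in all 6 pools. Those of *ACAT2* (-0.46 to 0.59), *PMVK* (-0.54 to 0.39) and *IDI1* (-0.91 to 0.79) were wider. *GGPS1*, which leads to geranylgeranyl groups and away from sterols, had 0.24 (interval -1.05 to 1.53) but ranged from 7.96 in small pool 5 to 9.98 in small pool 7, so that its log2 fold change turned to -0.33 without small pool 5.

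*SQLE*, the squalene epoxidase and an oxygen-dependent control point, had log2 values of 7.02, 7.51 and 7.76 in large and of 7.24, 7.33 and 7.16 in small pools. The large pools enclosed the small ones, and the log2 fold change was 0.19 (standard error 0.20, interval -0.29 to 0.67, limma adjusted p = 0.61). Without large pool 2 the log2 fold change was 0.40 (limma adjusted p = 0.40), and without large pool 4 it was 0.02. *LSS*, which closes the rings to lanosterol, had -0.12 and was above the floor in 1 of 6 pools.

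After lanosterol, *CYP51A1*, the lanosterol demethylase, had log2 values of 8.63, 9.01 and 8.51 in large and of 9.25, 8.67 and 8.32 in small pools. The groups overlapped throughout, and the log2 fold change was -0.03 (standard error 0.26, interval -0.67 to 0.61). A dimmer probe set of *CYP51A1*, below the floor in all pools, gave -0.58. *TM7SF2*, a sterol reductase, had -0.24 and *DHCR7*, the reductase of the last step, had 0.24, with intervals of -0.63 to 0.15 and of -0.27 to 0.75. With 1 pool left out, *TM7SF2* ran from -0.12 (without large pool 3) to -0.36 (without large pool 4), and *DHCR7* from 0.10 (without large pool 4) to 0.43 (without large pool 2).

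The remaining enzymes of this stretch were those with the widest spread, and they were singled out after their values were seen. *NSDHL*, a sterol dehydrogenase on the X chromosome, had log2 values of 6.54, 6.25 and 6.44 in large and of 8.87, 6.5 and 6.55 in small pools. Only small pool 5 was above the floor, and the log2 fold change of -0.90 (interval -2.45 to 0.66) was -0.12 without it. *EBP*, the sterol isomerase on the X chromosome, had log2 values of 8.67, 6.88 and 7.63 in large and of 8.59, 6.88 and 6.87 in small pools. Large pool 2 and small pool 5 were thus high together, and the log2 fold change of 0.28 (interval -1.25 to 1.81) turned to -0.19 without large pool 2 and was 0.85 without small pool 5.

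*MSMO1*, the methylsterol monooxygenase, had log2 values of 6.28, 6.84 and 7.0 in large and of 7.41, 5.68 and 5.11 in small pools. Small pool 5 was the highest of all pools and the other small pools were the lowest. The log2 fold change was 0.65 (interval -0.79 to 2.08, limma adjusted p = 0.56), 1.32 without small pool 5 (limma adjusted p = 0.48) and 0.17 without small pool 7. *SC5D*, the lathosterol desaturase, had log2 values of 6.58, 6.77 and 6.63 in large and of 4.83, 5.93 and 6.64 in small pools. The large pools were tight and small pool 7 lay among them, and the log2 fold change was 0.87 (standard error 0.43, interval -0.19 to 1.92, limma adjusted p = 0.37). It was 0.38 without small pool 5 and 1.28 without small pool 7 (limma adjusted p = 0.39). After quantile normalization its groups did not overlap (log2 fold change 0.92). As 5 of its 6 pools, among them 2 of the large pools, lay below the floor, the size of this difference is uncertain.

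The probe set shared by *HSD17B7*, a ketosteroid reductase of the same stretch, and its pseudogene had log2 values of 7.56, 7.0 and 7.22 in large and of 6.65, 6.23 and 6.28 in small pools. Every large pool was above every small pool, with a log2 fold change of 0.88, which was not tested because the share of the pseudogene is unknown. It was named after its values were seen.

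**Figure D3:**
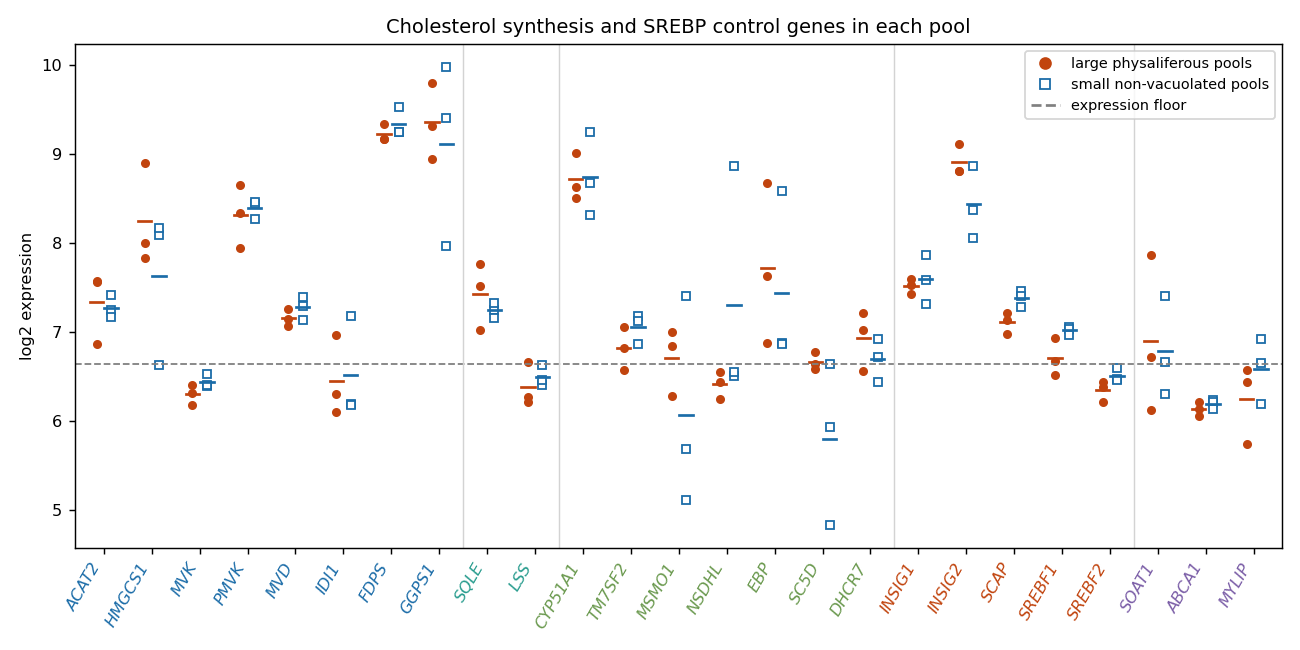
Log2 expression (vertical axis) of the 25 genes (horizontal axis, grouped by role from the mevalonate arm on the left to cholesterol disposal on the right) in each large (filled circles) and small (open squares) pool. Means of 3 pools are drawn as horizontal lines and the expression floor is dashed; single pools stand far from their group for *NSDHL*, *HMGCS1* and *SC5D*, and the groups of *SCAP* and *SREBF1* are close but apart.

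On the disposal side *SOAT1*, which esterifies cholesterol for storage, had a log2 fold change of 0.11 (interval -1.09 to 1.32) with values from 6.12 in large pool 2 to 7.86 in large pool 4. *ABCA1*, the cholesterol exporter and a main LXR target, was below the floor in all 6 pools, with log2 values of 6.06 to 6.24 and a log2 fold change of -0.06 (interval -0.29 to 0.17). *MYLIP*, an LXR-driven ubiquitin ligase for lipoprotein receptors, had -0.34 (interval -1.02 to 0.35), which was -0.08 without large pool 4, -0.17 without small pool 5 and -0.54 without small pool 7. *ABCA1* had the smallest range over the pools of the 25 genes, 0.18 on the log2 scale.

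Of 33 other genes of the pathway 30 were measured, and at an unadjusted p under 0.05 by limma 3 had higher and 1 had lower values in large cells, with 0 past the adjusted threshold. The shares of all genes were 4.33% higher and 10.5% lower. Their median log2 fold change was -0.01. *RNF139*, an endoplasmic reticulum ubiquitin ligase tied to sterol sensing, had log2 values of 8.79, 8.49 and 8.80 in large and of 8.43, 8.33 and 8.05 in small pools. The groups did not overlap, and the log2 fold change was 0.43 (standard error 0.15, interval 0.07 to 0.78, limma adjusted p = 0.32). It was the only gene with such a p among the 6 measured genes of SREBP processing and sterol-regulated degradation, where the proteases *MBTPS1* and *MBTPS2*, which cut SREBPs, had -0.36 and 0.21.

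Among 10 further SREBP targets *SCD*, the stearoyl-CoA desaturase, had log2 values of 10.24, 9.88 and 10.16 in large and of 9.80, 9.85 and 9.57 in small pools. The large pools were above all small pools by a narrow margin, and the log2 fold change was 0.35 (standard error 0.14, interval 0.01 to 0.69, limma adjusted p = 0.34). For *RNF139* and *SCD* the groups overlapped after quantile normalization. The fatty acid synthase *FASN* went the other way without overlap (log2 fold change -0.25, interval -0.57 to 0.08), with large pools at 6.69, 6.53 and 6.79 and small pools at 7.13, 6.83 and 6.79, where the highest large and the lowest small pool differ by less than the decimals shown.

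In the isoprenoid branches, *PGGT1B*, a subunit of geranylgeranyl transferase type I, had log2 values of 8.98, 9.16 and 9.87 in large and of 5.62, 8.23 and 8.31 in small pools. The groups did not overlap and small pool 5 stood far below the rest. The log2 fold change was 1.95 (standard error 0.75, interval 0.12 to 3.77, limma adjusted p = 0.33) and 1.06 without small pool 5 (limma adjusted p = 0.49). *RABGGTA*, a subunit of the transferase that modifies RAB proteins, had log2 values of 6.99, 6.51 and 6.77 in large and of 7.55, 7.08 and 7.23 in small pools. All large pools were below all small pools, and the log2 fold change was -0.53 (standard error 0.18, interval -0.96 to -0.09, limma adjusted p = 0.32). Its partner subunit *RABGGTB* had 0.23 with overlapping groups. The 5 sterol neighbours, among them *LBR*, *NR1H3* and *ABCG1*, had log2 fold changes of -0.24 to 0.35, and 0 of them had an unadjusted p under 0.05.

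The members did not divide the pools by phenotype. The mean deviation of the 25 genes from each gene's own mean was 0.06, -0.10 and 0.07 in large pools 2, 3 and 4 and 0.12, -0.04 and -0.12 in small pools 5, 6 and 7 on the log2 scale. Small pool 5 held the highest value for 11 of the 25 genes and for 5234 of all 18404 genes, and large pool 3 held the lowest for 8 of the 25 and for 5481 of all genes. The 8 markers of cycling cells deviated by -0.73 and -1.05 in large pools 2 and 3 but by 1.12 in large pool 4, and by 0.45, 0.55 and -0.34 in small pools 5, 6 and 7. Their mean log2 level ranged from 6.49 to 8.66 in large and from 7.20 to 8.09 in small pools, and *CDK1* alone was below the floor in all 6. The part of cycling cells in the values of the cholesterol genes was not tested.

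**Figure D4:**
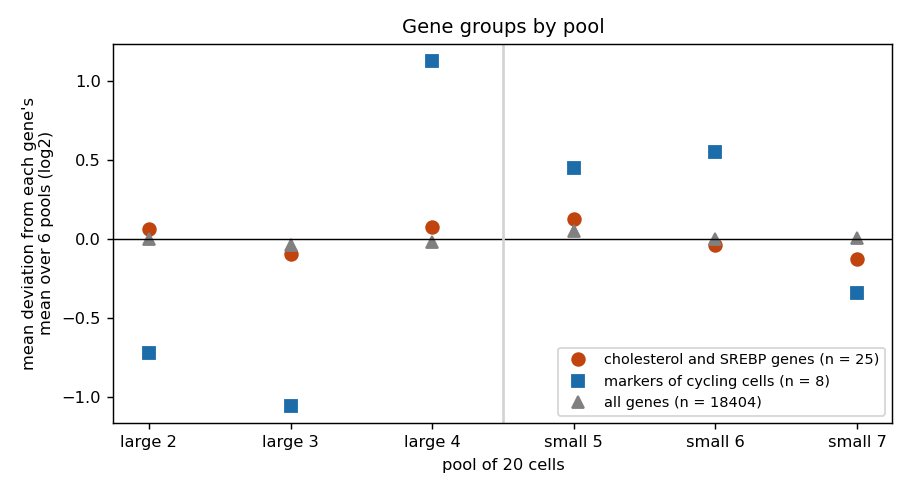
Mean deviation from each gene's mean over the 6 pools (vertical axis, log2) for the 25 cholesterol and SREBP genes, 8 markers of cycling cells and all 18404 genes in each pool of 20 cells (horizontal axis). The cholesterol genes stay between -0.12 and 0.12 with no split by phenotype, whereas the cycling markers reach 1.12 in large pool 4.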

How the data were processed

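Amplified cDNA of pools of 20 MUG-Chor1 cells was hybridized to Affymetrix Human Gene 1.0 ST arrays, 1 array per pool, with the phenotype of each pool taken from its title. As log2 values, the authors deposited expression after robust multi-array averaging (background correction, quantile normalization and median polish), and 0 columns were left unused. The number of pools limits the precision.

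Gene symbols came from the platform annotation, which gave 1 symbol to 19158, several to 1388 and none to 11775 of 32321 probe sets. The brightest probe set per gene was tested with limma 3.58.1 in R 4.3.3 for large minus small with no covariate and Benjamini-Hochberg adjustment over 18404 genes. The methods also remove genes without expression or change, without giving limits. Such a filter drops genes that do not change and was therefore used as an alternative, with a floor of log2(100) in at least 2 arrays and an interquartile range above 0.5.

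The 28 genes and all lists were chosen with earlier results of these data known. Values in every pool are given for members with an unadjusted p under 0.05 or groups that do not overlap, for *SREBF1*, *SREBF2*, *SCAP*, *INSIG1*, *INSIG2*, *HMGCS1*, *SQLE* and *CYP51A1*, and for exceptions stated as such. Of the other lists, genes with such a p are named. Others appear as context. Alternatives covered filters, probe sets, scaling, variance model, array weights and each pool left out. Coordinates and promoters are from RefSeq (GRCh38.p14).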

Additional observations from a re-analysis of the deposited data

How the results depend on the processing

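The count of members past both thresholds was 0 under all 15 alternatives run. The single member with a lower value at an unadjusted p under 0.05, *SCAP*, became 0 with all probe sets, array weights, centring, the expression floor, the filter on floor and interquartile range, the intensity trend and quantile normalization, and the count ran from 0 to 1 with 1 pool left out. It was 0 without large pool 3, small pool 5 or small pool 7, and without large pool 2 the gene was *SREBF1* (log2 fold change -0.43). Of all genes 5.55% to 8.64% had a lower value at such a p with 1 pool left out. Where the count became 0 with all pools kept, this share was 3.9% after centring and 5.9% after quantile normalization. With array weights it was 10.24% and with the intensity trend 11.02%, near the 10.5% without these changes. Over all probe sets it was 7.19%. Of the genes kept it was 9.37% with the expression floor and 1.67% with the filter on floor and interquartile range, which did not keep *SCAP*. The count of members with higher values at such a p became 1 after centring (*INSIG2*), against 6.56% of all genes. It ran from 0 to 2 with 1 pool left out, against 3.72% to 4.69%. Members with every large pool above every small pool numbered 1 after centring (*INSIG2*), against 8.65% of all genes. They numbered 1 after quantile normalization (*SC5D*), against 6.03%, and 0 to 2 with 1 pool left out, against 8.06% to 9.71%. Those with every large pool below numbered 0 after centring, against 10.7% of all genes, and 1 after quantile normalization, against 14.7%. With 1 pool left out they numbered 3 to 6, against 25.7% to 30.5% of all genes. With the filter on floor and interquartile range they numbered 0, against 3.89%. That filter kept 5 members, 4 of them above 0, with a median log2 fold change of 0.24. Over all 4675 genes that it kept the median was 0.20. Over the other alternatives the median of the members ran from -0.12 to 0.02. Signs turned after centring for *ABCA1* (0.023), *CYP51A1* (0.056), *IDI1* (0.022), *INSIG1* (0.0050) and *PMVK* (0.0049), and after quantile normalization for *ABCA1* (0.0086). With 1 pool left out the log2 fold change ran from -0.056 to 0.30 for *ACAT2*, -0.24 to 0.22 for *CYP51A1*, -0.19 to 0.85 for *EBP*, -0.33 to 0.67 for *GGPS1*, -0.32 to 0.27 for *IDI1*, -0.22 to 0.060 for *INSIG1*, -0.25 to 0.11 for *PMVK* and -0.37 to 0.50 for *SOAT1*. Without a change of sign it ran from -0.17 to -0.02 for *FDPS*, -0.26 to -0.03 for *LSS*, -0.18 to -0.06 for *MVD* and -0.19 to -0.08 for *MVK*. The cause was not tested. No paired analysis was possible because the large and small pools carry different replicate numbers. Of the 25 members 11 were above the floor in all pools and 3 in none, and for these 3 the arrays limit what can be seen.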
